A study of Arabidopsis thaliana with 27 samples.

Results

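In Arabidopsis thaliana, 34 genes had a low level in seedlings grown on 250 mM sorbitol and a level near that of untreated seedlings on 100, 150 and 200 mM sorbitol. They were chosen by their measured log2 signal from 21509 genes, each of which passed the scanner's test against background on every array of 1 or more groups. A gene was a member when its group mean at sorbitol 250 mM lay at least 1 log2 unit below the ATS media mean and its means at the other 3 sorbitol doses lay between -0.4 and 0.4 of it. The rule used the sorbitol and ATS media arrays, so their values in the members are given as a description and carry no test. On this scale a difference of -1 is a level 2-fold lower.

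All plants were of the Col-0 ecotype, germinated and kept for 2 weeks on ATS media, a defined mineral agar, and whole 2 week old seedlings with shoot and root were collected. Tested groups were grown on ATS media with sorbitol at 100, 150, 200 or 250 mM or with NaCl at 50, 75, 100 or 125 mM, the control was ATS media alone, and each of the 9 groups had 3 one-colour Agilent arrays. The 4 NaCl doses were matched to the 4 sorbitol doses in osmotic strength, so that NaCl 125 mM is the partner of sorbitol 250 mM. The study calls its microarray samples biological repeats. The labels do not say whether the 3 samples of a group came from separate cultures, and p-values measure the spread between these samples. Seedlings were sampled whole, and fewer cells of a type cannot be told apart from less RNA per cell.

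Sorbitol draws water from the root zone without adding ions, and NaCl adds both the osmotic load and sodium and chloride. Plants meet a lack of water with abscisic acid, a hormone made from carotenoids, and with changes in growth, in secretion of wall material and in sugar and amino acid handling. Secretion to the cell surface uses the exocyst, a complex that tethers vesicles at the plasma membrane, and small secreted peptides and arabinogalactan proteins act at that surface.

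One limit touches every value at sorbitol 250 mM. All 3 of its arrays lay on 1 slide that held no other group, so the slide and the treatment cannot be told apart. Across the 27 arrays between 70.1% and 80.8% of spots were well above background, and the 3 sorbitol 250 mM arrays had 75.4%, 75.7% and 76.3%. No spot was marked as saturated. The number of arrays, 3 per group, limits the precision.

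Of the 1423 genes that lay at least 1 log2 unit below ATS media at sorbitol 250 mM, the 34 members made up 2.39%. Of these 1423 genes, 583 were already at or below -0.4 at all 3 lower doses and 93 were above 0.4 at 1 or more of them. The members' median difference from ATS media was -0.01 at sorbitol 100 mM, -0.28 at 150 mM, -0.03 at 200 mM and -1.20 at 250 mM, while the medians of all genes were -0.01, 0.02, 0.03 and 0.04. The 150 mM dose stood a little apart within the limits of the rule, with 30 of the 34 members below ATS media, against 18 at 100 mM and 18 at 200 mM. Being within these limits is not the same as being unchanged. ARP1 (-0.32, -0.34 and -0.34) and EXO70C1 (-0.23, -0.39 and -0.28) lay below ATS media at all 3 lower doses. At 100, 150 and 200 mM 16, 4 and 16 members lay above it. The step from 200 mM to 250 mM had a median of -1.18 and ran from -0.68 to -2.06.

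In 32 members all 3 sorbitol 250 mM arrays lay below all 3 ATS media arrays, and in 30 they lay below all 12 arrays of ATS media and the lower sorbitol doses. In 21 members they lay below all 24 other arrays, NaCl included. The rule favours such gaps, and no share over all genes is given beside these counts, so they only describe the members. All 34 genes are annotated as protein coding, 16 have a symbol other than the locus tag, and they are spread over the 5 chromosomes (11, 3, 7, 5 and 8 genes on chromosomes 1 to 5 of the TAIR10.1 assembly). Their median log2 level on ATS media was 9.07, against 11.34 for all genes tested.

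**Figure D1:**
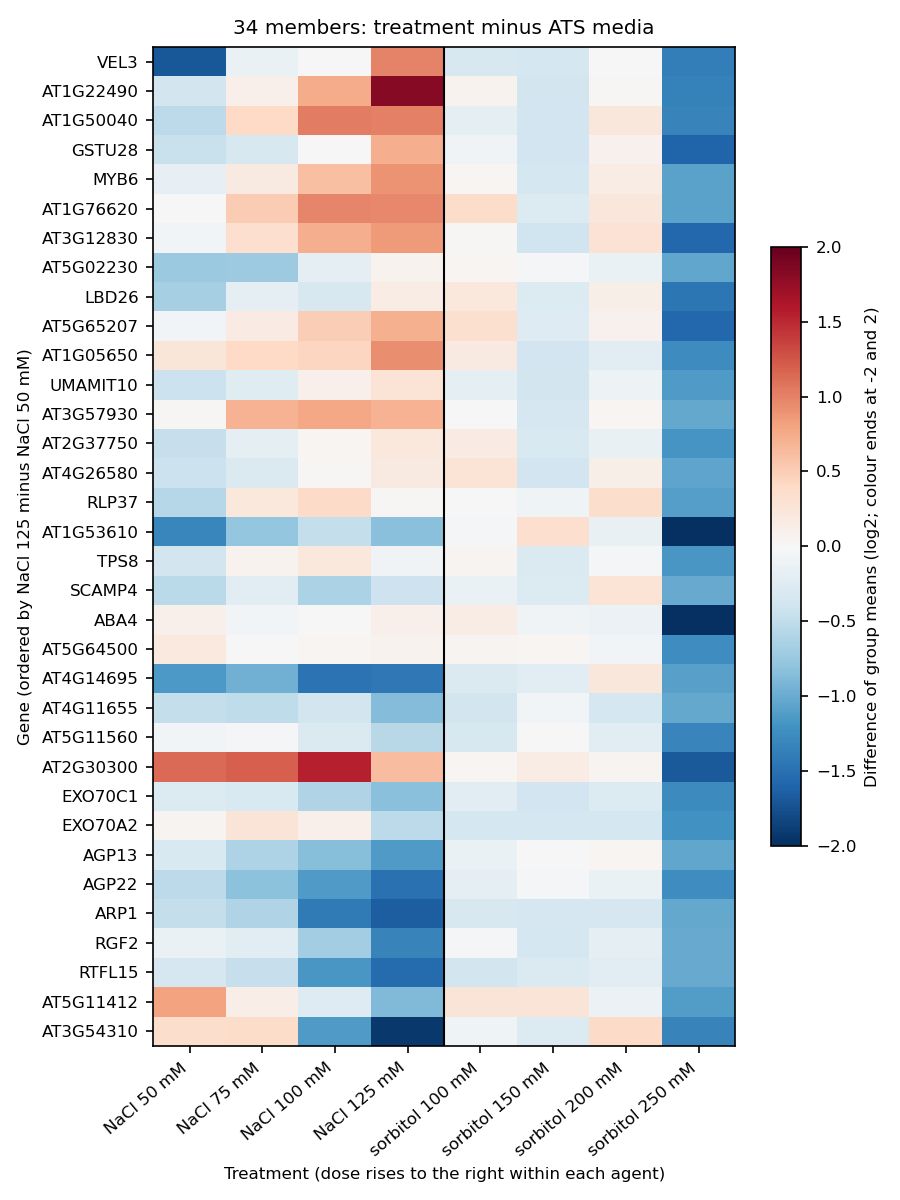
Heat map of the 34 members (down) in the 8 treatments (across, dose rising to the right within NaCl and within sorbitol), coloured by the log2 difference of the group mean from ATS media. The sorbitol 250 mM column is blue throughout (-1.0 to -2.17), the 3 other sorbitol columns are pale, and the NaCl columns hold both colours.

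The label of the group holds for most members but not for 3 of them, whose mean rests on a single array. ABA4, needed to make neoxanthin, a carotenoid precursor of abscisic acid, had the largest mean difference (-2.17). Its log2 levels at sorbitol 250 mM were 6.28, 12.58 and 12.57, against 12.60, 12.69 and 12.64 on ATS media. Without replicate 1 the difference was -0.07, so 2 of the 3 sorbitol 250 mM arrays were near the ATS media level.

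The spot behind that value had a median pixel intensity of 103 in replicate 1, against 5417 and 5055 in the other 2 sorbitol 250 mM arrays, and it was not marked as an outlier. AT5G11560, for which no name or role was available, had 11.32, 14.33 and 14.43 at sorbitol 250 mM, against 14.65, 14.74 and 14.68 on ATS media, a difference of -1.33 that became -0.31 without replicate 1. It has 3 probes, and the other probes differed from ATS media by -0.31 and 0.05. AT5G64500, also without a name, had 13.52, 9.79 and 13.59 at sorbitol 250 mM, against 13.53, 13.54 and 13.54 on ATS media. Its difference of -1.24 became 0.02 without replicate 2, and these genes are not treated below as lower at sorbitol 250 mM.

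VEL3, a member of the VIN3-like family of chromatin proteins, lay near background and varied in nearly every group. Its log2 levels were 2.24, 4.99 and 2.80 at sorbitol 250 mM, against 2.36, 6.04 and 5.77 on ATS media, and the 2 groups overlapped. In the other 30 members each sorbitol 250 mM array lay at least 0.4 below the ATS media mean. Without the 3 genes that rest on 1 array the median of the remaining 31 at sorbitol 250 mM was -1.17.

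**Figure D2:**
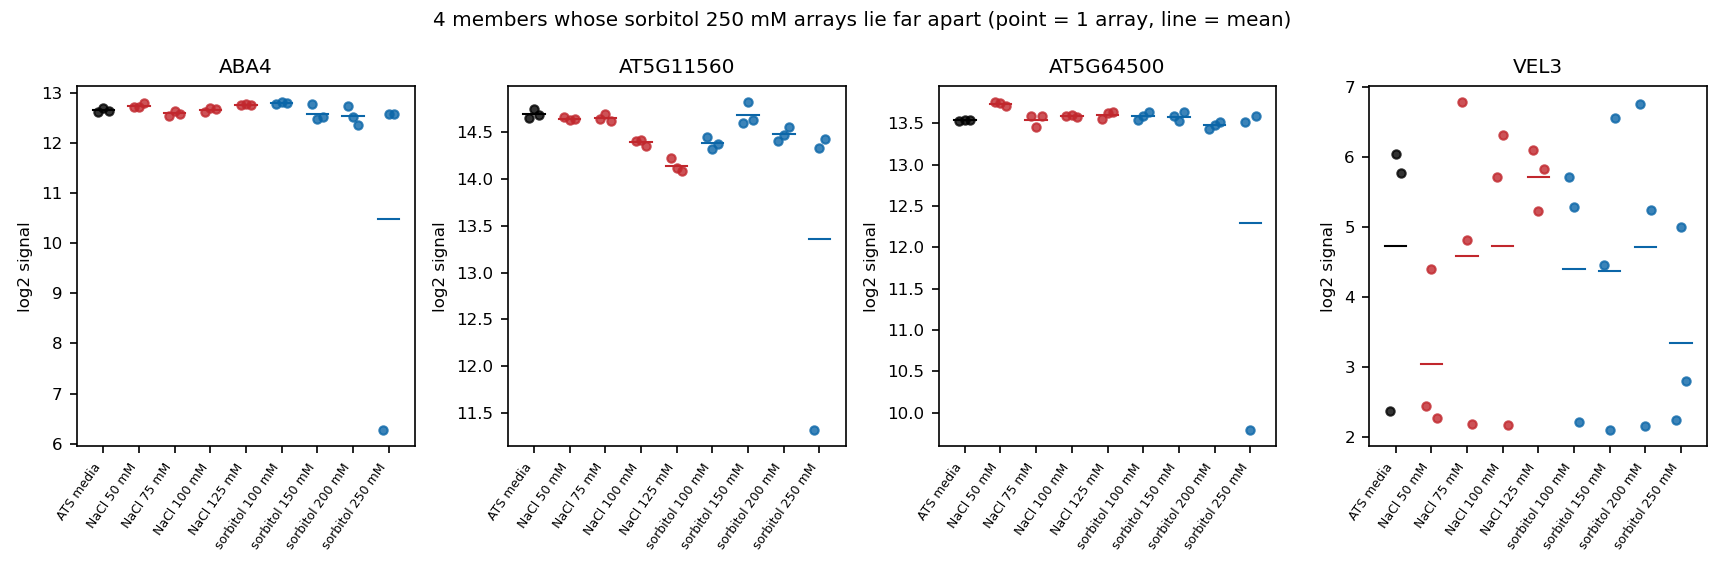
Log2 signal of 4 members in each of the 27 arrays (points) with group means (lines), ordered from ATS media through the NaCl doses (red) to the sorbitol doses (blue). In ABA4, AT5G11560 and AT5G64500 a single sorbitol 250 mM point lies far under the rest (6.28, 11.32 and 9.79), and VEL3 spreads over most of its range in several groups.

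Dim probes set a second limit. In 6 members no sorbitol 250 mM array was well above background, and there only a bound can be given, the mean on ATS media against the higher of the probe's own signal and the lowest signal that passed on each array. LBD26, a LOB-domain transcription factor, was at least 1.74-fold lower at sorbitol 250 mM than on ATS media, where 1 of 3 arrays measured it (measured means 3.65 and 5.10). The bHLH transcription factor gene AT1G22490 was at least 2.56-fold lower (4.66 and 6.02, 2 of 3 ATS media arrays), AT3G54310 at least 1.57-fold lower (3.62 and 4.96, 1 of 3) and AT5G11412 at least 1.87-fold lower (4.09 and 5.21, 2 of 3). AT1G53610 and AT2G30300 were not well above background on ATS media either, so no fold is given for them. The background correction also mattered, since after normexp with an added offset of 50 the members' median at sorbitol 250 mM was -0.76 and 11 of the 34 stayed at or below -1.

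Transcription factors and regulators of growth formed one set of members by role. AT3G12830 is SAUR72, a small auxin up RNA, the family of short proteins that auxin induces within minutes and that promote cell expansion. Its log2 levels were 7.97, 7.92 and 7.83 at sorbitol 250 mM, against 9.56, 9.45 and 9.41 on ATS media, a mean difference of -1.57. The 9 arrays of the lower sorbitol doses ran from 8.95 to 9.86, so they did not overlap with sorbitol 250 mM. MYB6, an R2R3 MYB transcription factor, had 9.19, 9.17 and 9.12 at sorbitol 250 mM, against 10.22, 10.25 and 10.23 on ATS media (-1.07). AT1G22490 had 4.62, 4.86 and 4.51, against 6.08, 5.90 and 6.08 on ATS media, and here too the groups were apart.

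Members of metabolism and transport were low with little spread. GSTU28, a tau-class glutathione S-transferase of the family that conjugates glutathione to reactive compounds, had 6.49, 6.45 and 6.50 at sorbitol 250 mM, against 8.06, 8.08 and 8.09 on ATS media (-1.60). The lower sorbitol arrays ran from 7.66 to 8.20. TPS8, a class II member of the trehalose-6-phosphate synthase family, was among the brightest members, with 12.79, 12.77 and 12.82 at sorbitol 250 mM, against 13.98, 13.96 and 13.94 on ATS media (-1.17). UMAMIT10, of a family that moves amino acids across membranes, had 8.60, 8.64 and 8.63, against 9.73, 9.77 and 9.77 on ATS media (-1.13). In each of these genes all sorbitol 250 mM arrays lay below all 24 other arrays.

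Genes of secretion and the cell surface made up another set. EXO70C1 and EXO70A2, subunits of the exocyst, had 8.16, 8.21 and 8.22 and then 5.40, 5.39 and 5.28 at sorbitol 250 mM, against 9.44, 9.50 and 9.48 and then 6.54, 6.58 and 6.59 on ATS media. The differences were -1.28 for EXO70C1 and -1.21 for EXO70A2, and a second EXO70C1 probe was well above background on only 2 of 27 arrays. AGP22 and AGP13 encode arabinogalactan peptides, short proteins heavily decorated with sugar at the cell surface. AGP22 lay between 10.68 and 10.75 on the 3 arrays of sorbitol 250 mM, against 11.88, 12.01 and 11.98 on ATS media (-1.24). AGP13 had 11.62, 11.65 and 11.67, against 12.70, 12.68 and 12.67 on ATS media (-1.04), while its second probe gave -0.57. SCAMP4, a secretory carrier membrane protein, had 8.49, 8.55 and 8.51, against 9.54, 9.56 and 9.50 on ATS media (-1.01).

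Small peptides, a receptor-like protein and an RNA-binding protein completed the named genes. RGF2, a root meristem growth factor peptide, had 6.40, 6.25 and 6.27 at sorbitol 250 mM, against 7.34, 7.29 and 7.31 on ATS media (-1.0), and was the member nearest to the limit. RTFL15, of the ROTUNDIFOLIA-like family of small peptides, had 7.56, 7.60 and 7.78, against 8.66, 8.75 and 8.58 on ATS media (-1.01). RLP37, a receptor-like protein, had 6.37, 6.30 and 6.33, against 7.44, 7.33 and 7.55 on ATS media (-1.11). The groups did not overlap in these genes. ARP1, an abscisic acid-regulated RNA-binding protein, had 8.77, 8.93 and 8.90, against 9.90, 9.84 and 9.93 on ATS media (-1.02), and AT4G11655, a CASP-like membrane protein gene, differed by -1.03.

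Of the members known by locus tag alone, AT5G65207 and AT1G50040 were among the 12 with the largest difference. AT5G65207 had 11.18, 11.13 and 11.13 at sorbitol 250 mM, against 12.72, 12.72 and 12.70 on ATS media (-1.57). AT1G50040 had 9.65, 9.73 and 9.75, against 10.92, 11.13 and 11.10 on ATS media (-1.34). The others were AT1G05650 (-1.26), AT2G37750 (-1.18), AT4G14695 (-1.09), AT1G76620 (-1.07), AT4G26580 (-1.06), AT5G02230 (-1.04) and AT3G57930 (-1.02). Second probes of AT2G37750, AT4G26580 and AT5G02230 gave -1.63, -1.27 and -1.16, with the sign of the first probe.

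**Figure D3:**
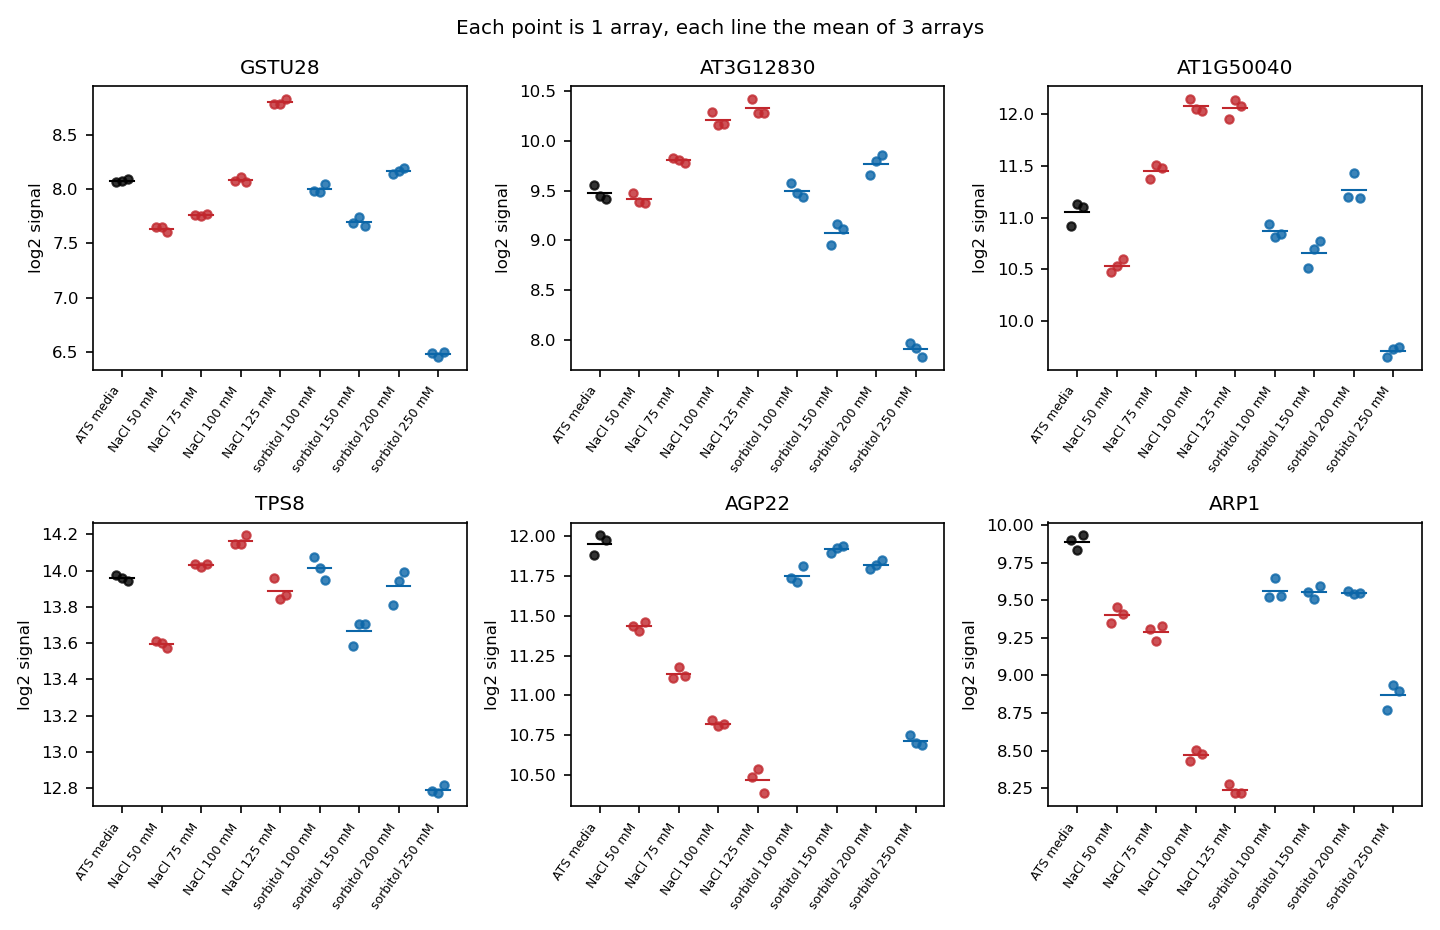
Log2 signal of 6 members in each of the 27 arrays (points; lines are means of 3), ordered from ATS media (black) through NaCl (red) to sorbitol (blue). In GSTU28, AT3G12830, AT1G50040 and TPS8 the sorbitol 250 mM arrays are the lowest of all, while in AGP22 and ARP1 the NaCl 125 mM arrays (10.38 to 10.54 and 8.22 to 8.28) lie lower still.

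The limits of the rule cut through a continuous range. SCAMP4 (-1.01) and RGF2 (-1.0) lay just inside the limit at sorbitol 250 mM, and AT4G19645 (-0.99) and SNRK2.5, a protein kinase of the SnRK2 family of osmotic stress signalling (-0.99), lay just outside it. Among the genes kept out by the lower doses were AGP7 (0.43 at 100 mM, -3.59 at 250 mM), PIT1 (0.41 at 100 mM, -1.83 at 250 mM), MYB43 (-0.42 at 150 mM, -1.26 at 250 mM) and LAC17 (0.46 at 200 mM, -1.16 at 250 mM). Just inside those limits were AT1G76620 (0.37) and RTFL15 (-0.37) at 100 mM, AT1G53610 (0.34) and AT3G12830 (-0.39) at 150 mM, and AT3G54310 (0.38) and EXO70A2 (-0.35) at 200 mM. Rules with 0.3 and 0.5 in place of 0.4 took 11 and 76 genes. Leaving out sorbitol 150 mM replicate 2 gave 27 members, 24 of them among the 34.

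The differences in the rule used no NaCl array, so comparing NaCl 125 mM with NaCl 50 mM used neither of their groups. The filter against background and the choice of probe did use the NaCl arrays, and limma's spread came from all 27 arrays. VEL3 passed the filter through NaCl 125 mM alone, which favoured its difference of 2.69, and it was not called. Between NaCl 50 mM and NaCl 125 mM members went both ways, by limma's moderated test with an adjusted p under 0.01 over all 21509 genes. Of the 34 members, 16 (47.1%) were higher at NaCl 125 mM than at NaCl 50 mM, against 27.4% of all genes, and 10 (29.4%) were lower, against 40.7% of all genes. The median difference was 0.38 for the members and -0.08 for all genes. The other 8 members were not called. Without the 3 genes that rest on 1 array, 16 of 31 were higher and 10 were lower, with a median of 0.58. Among the 26 members that passed against background on all 27 arrays, 14 were higher, against 27.9% of all such genes, and 8 were lower, against 43.3%. NaCl 125 mM shared no slide with NaCl 50 mM, so a fixed slide term could not be fitted for it; with slide as a random block 23 of the 26 calls held, and RLP37, LBD26 and AT4G26580 did not (limma adjusted p = 0.0365, 0.0359 and 0.0120). The calls of RLP37 and LBD26 were also lost without single arrays (limma adjusted p up to 0.0380 and 0.0128).

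The members higher at NaCl 125 mM than at NaCl 50 mM had differences from 0.29 to 2.18. AT1G22490 had 7.94, 7.81 and 7.76 at NaCl 125 mM, against 5.65, 5.84 and 5.48 at NaCl 50 mM, a difference of 2.18 ± 0.13 (SE, limma adjusted p = 6.13e-12). AT1G50040 had 11.96, 12.14 and 12.08, against 10.47, 10.53 and 10.60 at NaCl 50 mM (1.53 ± 0.07, limma adjusted p = 1.05e-13). GSTU28 had 8.78, 8.78 and 8.83, against 7.65, 7.65 and 7.60 at NaCl 50 mM (1.17 ± 0.03, limma adjusted p = 2.29e-19). In these genes the NaCl 125 mM arrays were among the 6 highest of the 27, while the sorbitol 250 mM arrays were the lowest.

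MYB6 rose by 1.06 ± 0.04 and AT1G76620 by 0.96 ± 0.04 between these NaCl doses (limma adjusted p = 7.46e-16 and 1.33e-14). AT3G12830, the SAUR72 gene, rose by 0.91, AT5G02230 by 0.81, LBD26 by 0.81, AT5G65207 by 0.76, AT1G05650 by 0.70, UMAMIT10 by 0.69 and AT3G57930 by 0.69. The smaller rises were those of AT2G37750 (0.67), AT4G26580 (0.60), RLP37 (0.58) and TPS8 (0.29 ± 0.04, limma adjusted p = 2.36e-06). In all 16 genes the 3 sorbitol 250 mM arrays lay below all 24 other arrays, as in 3 of the 10 members called lower. The rule chose low levels at sorbitol 250 mM. The 24 other arrays include those of both NaCl doses compared, so a fall at the higher dose makes such a gap less likely. The contrast between the members called higher and those called lower is thus partly built in. No share over all genes is given beside these counts, so they are a description.

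The members lower at NaCl 125 mM than at NaCl 50 mM included the small peptide genes RTFL15 and RGF2, both arabinogalactan peptides and both exocyst subunits. RTFL15 had 7.14, 7.16 and 7.05 at NaCl 125 mM, against 8.36, 8.29 and 8.32 at NaCl 50 mM (-1.21 ± 0.06, limma adjusted p = 4.16e-14). RGF2 had 5.86, 5.91 and 6.16, against 7.15, 7.21 and 7.17 at NaCl 50 mM (-1.20 ± 0.06, limma adjusted p = 6.33e-14). ARP1 had 8.28, 8.22 and 8.22, against 9.35, 9.46 and 9.41 at NaCl 50 mM (-1.17 ± 0.04, limma adjusted p = 9.28e-16). AGP22 fell by 0.97, AGP13 by 0.83, EXO70A2 by 0.59, EXO70C1 by 0.57 and AT4G11655 by 0.39. With 75th percentile scaling the difference of AT4G11655 was -0.11 (limma adjusted p = 0.0620), and its call was lost. SCAMP4, also of secretion, was not called (0.13, limma adjusted p = 0.0508). Of the other genes of these families, 3 EXO70 genes were lower and 7 higher, and 10 arabinogalactan genes were lower and 13 higher. AT3G54310, without a known role, was not well above background on any NaCl 125 mM array and was at least 2.65-fold lower (measured means 3.02 and 5.31, limma adjusted p = 8.62e-06), and AT5G11412 fell by 1.70 ± 0.25.

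Markers of other kinds also differed between these doses. Of 16 fixed root markers, 13 were lower and 1 higher at NaCl 125 mM than at NaCl 50 mM, with a median of -0.86, and of 26 cell division genes 24 were lower and 1 higher (-0.72). The summed signal of the root list was between 180674 and 192836 at NaCl 125 mM, against 166429 to 169477 at NaCl 50 mM, so the sum was higher although most of its genes were lower. Of 42 photosynthesis genes, 11 were lower and 2 higher (-0.04), where 40.7% of all genes were called lower and 27.4% higher. The part of these shifts in the members' differences was not tested.

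**Figure D4:**
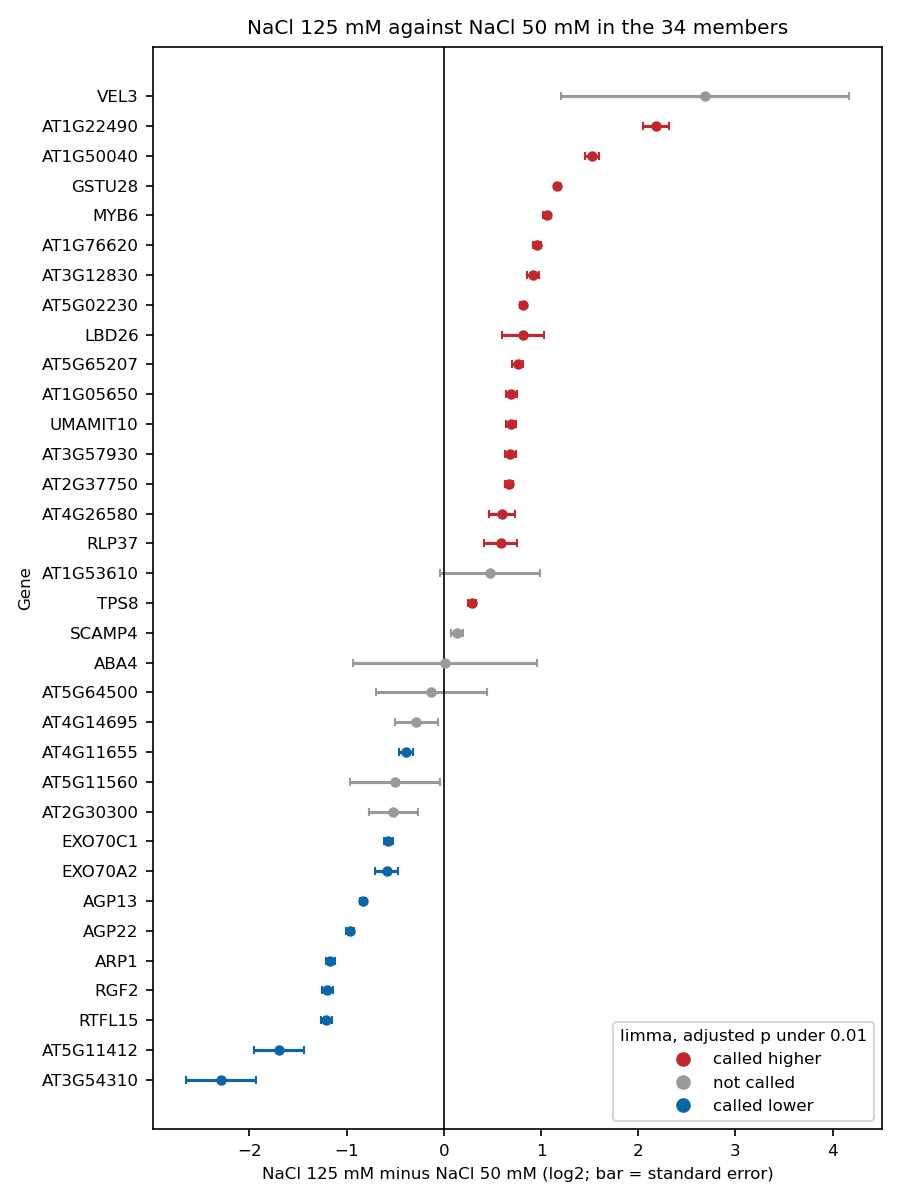
NaCl 125 mM minus NaCl 50 mM (log2, points; bars are standard errors from limma) for the 34 members, largest at the top. The 16 genes called higher (red) run up to 2.18, the 10 called lower (blue) end with AT3G54310, which was at background at NaCl 125 mM and was at least 2.65-fold lower, and the 8 in grey were not called, among them VEL3 with the widest bar.

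The calls of the 3 genes that rest on 1 array also depended on that array, which widens their estimated spread in every comparison. Without sorbitol 250 mM replicate 1, AT5G11560 was lower at NaCl 125 mM than at NaCl 50 mM by -0.50 ± 0.05 (limma adjusted p = 5.39e-08), whereas with it the adjusted p was 0.331. Without sorbitol 250 mM replicate 2, AT5G64500 was lower by -0.13 ± 0.04 (limma adjusted p = 0.00567), whereas with it the adjusted p was 0.846. ABA4 was called in neither fit, and without replicate 1 its NaCl differences from ATS media lay between -0.06 and 0.11.

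NaCl 100 mM against NaCl 75 mM, a comparison chosen after the data were seen, gave 10 members higher (background 17.3%) and 8 lower (background 21.9%), with a median of 0.10. These groups shared 2 slides, and all 18 calls had the same sign within each slide. GSTU28 and MYB6 were again among the genes called higher and RTFL15, ARP1, AGP22, AGP13 and RGF2 among those called lower.

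Against ATS media the picture changed with the NaCl dose. These comparisons share the ATS media arrays with the rule. At NaCl 50 mM 16 members were lower, against 19.8% of all genes, and 3 were higher, against 26.9% of all genes; the member median was -0.35. The count of 3 was 1 with 75th percentile scaling, with normexp and among genes above background on all 27 arrays. At NaCl 75 mM 13 were lower (background 20.2%) and 7 higher (24.2%), with a median of -0.10. At NaCl 100 mM 11 were lower (30.3%) and 10 higher (29.3%), and at NaCl 125 mM 12 were lower (37.9%) and 11 higher (32.4%), with medians of 0.01 and 0.07. Within slide 1 and within slide 2, which both held NaCl 50 mM and ATS media, all 19 genes called at NaCl 50 mM kept their sign (medians -0.31 and -0.34). Without 1 array or another the calls of AT5G11412, RLP37 and MYB6 at NaCl 50 mM, SCAMP4 and RGF2 at NaCl 75 mM, AT3G54310 at NaCl 100 mM and AT5G11412 at NaCl 125 mM were lost, with limma adjusted p up to 0.0612. NaCl 75 and 100 mM shared only slide 1 with ATS media, and all 20 and 21 called genes kept their sign there. With slide as a fixed term 18 of the 19, 17 of the 20 and 20 of the 21 calls held at NaCl 50, 75 and 100 mM. The calls of EXO70C1 rest on its brighter probe and were lost in the mean of both probes. In the mean of its probes AT2G37750 lost its calls at NaCl 75 and 125 mM (limma adjusted p = 0.013 and 0.011).

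The members followed several NaCl patterns. Over the 4 doses 20 members were called lower than on ATS media at 1 or more doses, a call without a size limit. With the rule's limit of -1 as well, 1, 0, 5 and 7 members were called lower at NaCl 50, 75, 100 and 125 mM. These 20 were 58.8% of the members, against 48.5% of all genes tested. The 8 genes lower at all 4 NaCl doses (23.5% of the members, against 10.1% of all genes) were AGP13, AGP22, ARP1, RTFL15, EXO70C1, SCAMP4, AT4G11655 and AT4G14695. AGP22 had 10.49, 10.54 and 10.38 at NaCl 125 mM (-1.49 ± 0.04 against ATS media, limma adjusted p = 1.25e-18), lower than its 3 sorbitol 250 mM arrays. At NaCl 125 mM the differences were -1.65 ± 0.04 for ARP1, -1.55 ± 0.06 for RTFL15 and -1.43 ± 0.22 for AT4G14695.

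AT1G05650 was higher at all 4 doses (0.94 ± 0.05 at NaCl 125 mM, limma adjusted p = 2.17e-12), a pattern of 12.2% of all genes. Its call at NaCl 50 mM (0.24) was lost with 75th percentile scaling (0.07, limma adjusted p = 0.530) and with normexp (0.09, limma adjusted p = 0.0246). In 7 members (20.6%, against 12.1% of all genes) both directions occurred, among them GSTU28 (-0.44 at NaCl 50 mM and 0.72 at NaCl 125 mM), AT1G50040 (-0.52 and 1.01) and UMAMIT10 (-0.43 and 0.27). TPS8 was lower at NaCl 50 mM (-0.36), higher at NaCl 100 mM (0.21) and not called at NaCl 125 mM (-0.07, limma adjusted p = 0.135). The 7 members called at no NaCl dose (20.6%, against 15.7% of all genes) were ABA4, VEL3, LBD26, AT1G53610, AT4G26580, AT5G11560 and AT5G64500. Without sorbitol 250 mM replicate 1, AT5G11560 was called lower at NaCl 100 and 125 mM (limma adjusted p = 6.27e-05 and 1.31e-08). Without sorbitol 250 mM replicate 2, AT5G64500 was called higher at NaCl 50 mM (limma adjusted p = 0.000251). AT2G30300 was called higher at NaCl 50, 75 and 100 mM, but no ATS media array measured it well above background, so its rise was at least 1.01-fold for NaCl 75 mM, for NaCl 100 mM at least 1.29-fold, and no fold is given at NaCl 50 mM. It entered the genes tested through these 3 groups alone, so the filter itself favoured its calls, which are among the 3, 7 and 10 members counted as higher.

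At the matched osmotic strength, 11 members (32.4%, against 32.4% of all genes) were called higher at NaCl 125 mM than on ATS media while low at sorbitol 250 mM. The differences were -1.34 at sorbitol 250 mM and 1.01 at NaCl 125 mM for AT1G50040, -1.57 and 0.85 for AT3G12830, and -1.07 and 0.90 for MYB6. AT1G22490 was at least 2.56-fold lower at sorbitol 250 mM and higher by 1.82 at NaCl 125 mM. In AGP13 (-1.04 and -1.14), EXO70C1 (-1.28 and -0.84) and RGF2 (-1.0 and -1.33) both treatments were below ATS media. These pairs share the ATS media arrays and the first of each was used by the rule.

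None of 22 broad gene families searched by symbol held 3 or more members, and TPS8, in the list of sugar and starvation genes, was the only member in 28 fixed pathway and cell type lists. Of the 23 genes of that list, 11 were lower and 9 higher at sorbitol 250 mM than on ATS media, with a median of -0.14, where 30.5% of all genes were called lower and 36.2% higher. In addition, 14 families that hold a named member were examined, chosen with the members known. Of 27 other arabinogalactan genes measured, 18 were lower and 3 higher at sorbitol 250 mM, with a median of -0.50. AGP17 was at -2.09, and AGP7, at -3.59, was not called (limma adjusted p = 0.0366). Of 64 other SAUR genes, 37 were lower and 15 higher (-0.40), and of 15 other ROTUNDIFOLIA-like genes 9 were lower and 2 higher (-0.56).

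By median, the other families of the 14 were nearer to all genes or leaned the other way. Of 32 other CASP-like genes, 14 were lower and 7 higher (-0.16). The broad bHLH and MYB families, outside the 14, also held 1 member each. Of 18 other bHLH genes 13 were lower and 3 higher (-0.24), and of 128 other MYB genes 48 were lower and 44 higher (0.02). Of 17 other EXO70 genes, 8 were lower and 5 higher (-0.14), running from EXO70H7 at -2.33 to EXO70H2 at 1.73. Of 25 other tau glutathione S-transferases, 4 were lower and 16 higher (0.36), while GSTU28 itself was at -1.60. Of 8 other trehalose phosphate synthase genes, 3 were lower and 2 higher, with TPS7 at -1.22, and of 10 other genes of abscisic acid synthesis and carotenoid cleavage 3 were lower and 4 higher. Of 10 other root meristem growth factor genes 4 were lower and 3 higher, and RGF8 (-1.74) and RGF3 (-0.97) lay near RGF2. Whether probes of similar family members pick up each other's RNA was not tested.

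**Figure D5:**
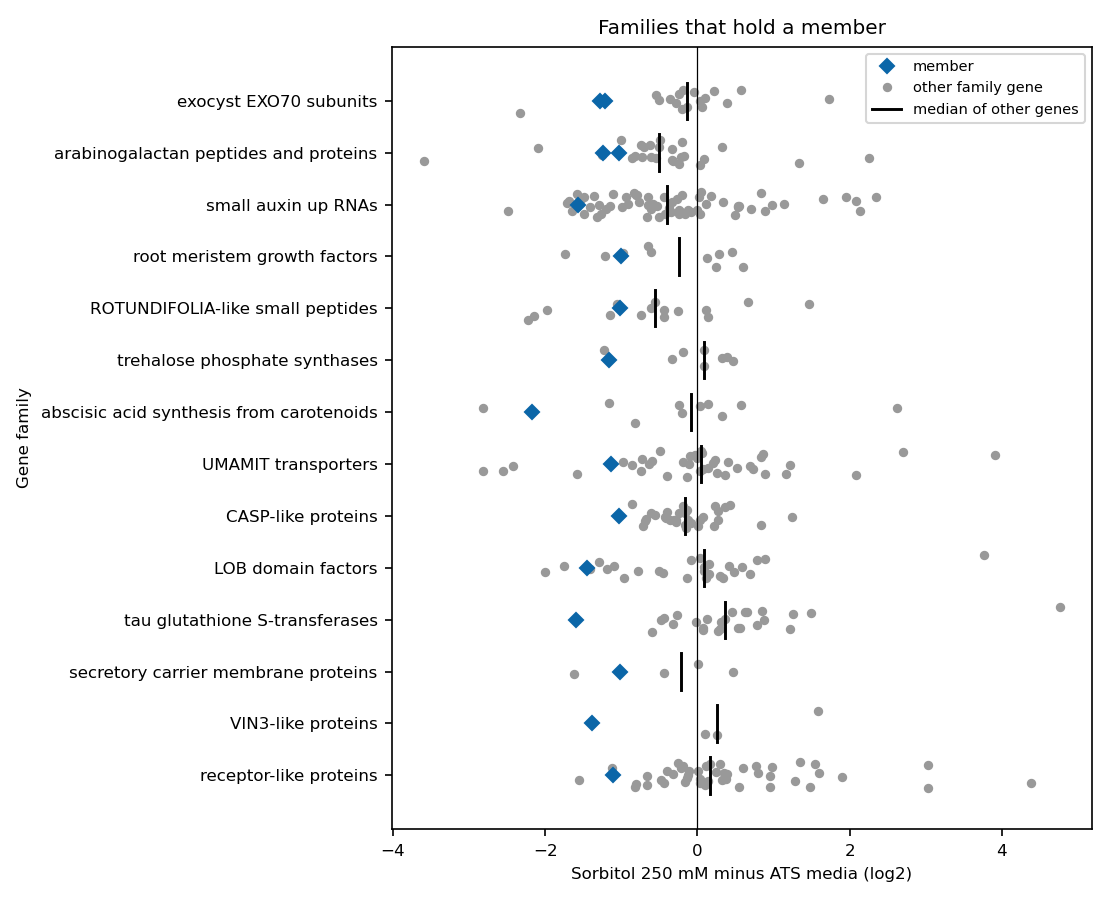
Sorbitol 250 mM minus ATS media (log2, across) for genes of 14 families (down), chosen with the members known because they hold a named member. Members are blue diamonds, other genes grey points and their median a black line. The medians of the arabinogalactan, SAUR and ROTUNDIFOLIA-like genes lie at -0.50, -0.40 and -0.56, and that of the tau glutathione S-transferases at 0.36.

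Cell type and germination markers at sorbitol 250 mM were read from fixed lists. Of 16 root markers 10 were lower and 2 higher than on ATS media (median -0.46), and at sorbitol 200 mM, where the members were near ATS media, 12 were lower and 2 higher (-0.37), where 23.4% of all genes were called lower and 29% higher. The summed signal of the root list was between 210241 and 218905 at sorbitol 250 mM, against 190651 to 194395 on ATS media. Of 42 photosynthesis genes 8 were lower and none higher (-0.07), and of 26 cell division genes 7 were lower and 9 higher (0.06). At sorbitol 250 mM 30.5% of all genes were called lower and 36.2% higher. Stored seed proteins, as found in seeds that have not germinated, had a summed signal of 1739 to 1745 at sorbitol 250 mM, against 502 to 542 on ATS media, with 7 of 12 genes higher and 1 lower. At sorbitol 200 mM their sum was larger, 4078 to 4411, with 11 of 12 genes higher and 1 lower. The part of these lists in the members' levels was not tested.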

How the data were processed

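The authors deposited 1 scanner file per array from Agilent Feature Extraction 10.7 (named in the submitters' processing notes), with the processed signal, median signal and background as spot intensity values and flags as other values, and a table of intensity values for the series. Quantile normalization of the processed signal gave that table with differences of at most 4.8e-08 percent. Here, control spots were left out, the processed signal of the deposited files was quantile normalized, 530 outlier values (0.0448%) were masked and log2 values were averaged per probe. Of 36226 spots with a RefSeq transcript accession, 34369 matched 1 gene (25383 genes). The probe with the highest mean stood for a gene.

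Group means of the 9 groups were fitted to 27 arrays with limma 3.58.1 (R 4.3.3), with empirical Bayes moderation, two-sided p-values and Benjamini-Hochberg adjustment within each comparison, and calls at an adjusted p under 0.01, the threshold of the study's methods, which pooled doses and used a Mann-Whitney test. The fit was tested on simulated data. Arrays lay on 7 slides. Members and lists were chosen with earlier results of these data known. Named genes were the 12 largest differences at sorbitol 250 mM, the 5 largest rises and falls of each main NaCl 125 mM comparison, members of fixed lists and genes at the limits. The other members were named after their values were seen. Families were matched by symbol, since gene descriptions were not used here. Background correction by normexp (offset 50) used the median signal, because the mean signal was not used here. Alternatives also covered scaling, probes, dim-spot filters, slide and replicate blocks, thresholds and leaving out each array. Columns of the authors' own comparisons were not used. Tables and plots were made in Python 3.11.15 with pandas 2.3.3 and matplotlib 3.10.9.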

Additional observations from a re-analysis of the deposited data

Results flagged for a closer look

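In 10 members all 3 NaCl 125 mM arrays lay on one side of the ATS media arrays and all 3 NaCl 50 mM arrays on the other, and the difference between the 2 doses passed limma's test. In 9 of them (26.5% of the members, against 7.49% of all genes tested) NaCl 125 mM was higher, by 2.18 in AT1G22490, 1.53 in AT1G50040, 1.17 in GSTU28, 1.06 in MYB6, 0.81 in AT5G02230, 0.76 in AT5G65207, 0.69 in UMAMIT10, 0.67 in AT2G37750 and 0.60 in AT4G26580 (log2). In AT5G11412 NaCl 125 mM was lower, with a difference of -1.70, a pattern of 2.94% of the members and 11.7% of all genes. Both shares rest on the ATS media arrays, which the choice of members used. Arrays on either side of ATS media did not always give a call against it. At NaCl 50 mM AT5G65207, AT1G22490 and AT4G26580 were not called (limma adjusted p = 0.476, 0.0268 and 0.0101). At NaCl 125 mM AT5G02230 and AT4G26580 were not called (limma adjusted p = 0.0209 and 0.247). At NaCl 125 mM against ATS media, second probes of AT2G37750 and AT4G26580 gave -0.04 and -0.01, where the first gave 0.21 and 0.17. The second probe of AT5G02230 gave 0.06, where the first gave 0.08. The limma adjusted p ran from 2.29e-19 in GSTU28 to 0.000432 in AT4G26580. NaCl 125 mM lay on slides that held neither NaCl 50 mM nor ATS media.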

How the results depend on the processing

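The 34 members depend on the limits and on background correction: 15 genes met the rule after normexp, of which 10 were among the 34, and 11 and 76 met it with limits of 0.3 and 0.5 at the lower doses. Leaving out 1 array gave 27 to 41 members. Members higher at NaCl 50 mM than on ATS media numbered 3, against 1 with 75th percentile scaling, 1 with normexp and 1 among genes well above background on all 27 arrays. Members higher at the higher of 2 NaCl doses numbered 10 for NaCl 100 mM against NaCl 75 mM. Replicate numbers were not taken as pairs, since no label ties them and only 13 of 108 same-numbered pairs had a correlation of deviations over 0.1 (mean 0.034, highest 0.499). As a hint from the data, 17 of 27 arrays were closest to their own number, and the replicate 1 arrays of all groups but sorbitol 250 mM lay on slides 1 and 4. With the replicate number as a block, 16 members were higher and 10 lower at NaCl 125 mM than at NaCl 50 mM, and 17 rather than 16 were lower at NaCl 50 mM than on ATS media. Leaving out 1 array gave 14 to 16 members higher and 10 to 11 lower at NaCl 125 mM than at NaCl 50 mM. The 20 named NaCl differences kept their direction and side of the threshold in all 714 pairs of difference and alternative that could be fitted. The cause of the changes was not tested. Low signal limits 6 members at sorbitol 250 mM.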
